A study of Homo sapiens with 8 samples.

Results

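The first 10 Mb of chromosome 6, at the tip of its short arm (6p25 to 6p24, hg19), was where domains of the histone mark H3K27me3 were broadest in a lymphoma cell line that expressed mutant EZH2. The regions described are the H3K27me3 islands whose midpoint lies in this segment, 189 in the LY19WT list and 183 in the LY19Y646F list, 372 of 105576 islands in all. The segment was chosen on the measured coverage and width of islands in these 2 lists, so its coverage, widths and read densities are given as descriptions, with no test.

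The study profiled H3K27me3 by ChIP-seq in 2 untreated, immortalized B-cell lymphoma lines, at passages 10 to 15 per the labels. In LY19WT, EZH2 was wild type. The mutant enzyme of the other line, EZH2-Y646F, was made constitutively in LY19Y646F from a CMV promoter, a strong viral promoter, so it was not under the control of the cell's own EZH2 gene. Whether a line was a single clone or a pool was not given in the sources used here. Each line had 3 ChIP libraries and 1 input library, and the authors' ChIP replicates were merged before islands were called. There is therefore 1 list per line, no value below has a replicate error, and no difference between the lines was tested.

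EZH2 is the catalytic subunit of Polycomb repressive complex 2, which places methyl groups on lysine 27 of histone H3. The trimethylated form marks silent genes, above all developmental regulators with CpG-rich promoters, and can spread from such sites into broad domains. Substitutions of this tyrosine in the SET domain of EZH2 recur in germinal-centre B-cell lymphoma and favour the step from dimethylation to trimethylation. The 6p25 segment holds a forkhead gene cluster, the serpin B cluster, IRF4, a transcription factor of germinal-centre exit and plasma cell differentiation, and many genes of general cell function.

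Promoters of 7 genes are shown because they stand for the states met in the segment. Islands covered at least 50% of the 2 kb around the start site in LY19WT alone at IRF4 and in LY19Y646F alone at F13A1. At TUBB2B they did so in both lines. The share was 60% at IRF4 in LY19WT and at TUBB2B in LY19Y646F. In these cases the start, rounded to 1 kb, fell between islands. At BMP6 and FOXF2 islands lay over the gene but covered under 50% of the 2 kb around the start site, and at FOXC1 and RREB1 no island of either line met the gene. Each sequence runs from 250 bases before to 50 bases after the start, 5′ to 3′ on the gene's strand. They were taken from RefSeq on GRCh38.p14 and matched by symbol alone, since the islands are on hg19. Capitals mark CG dinucleotides, which read the same on both strands.
IRF4: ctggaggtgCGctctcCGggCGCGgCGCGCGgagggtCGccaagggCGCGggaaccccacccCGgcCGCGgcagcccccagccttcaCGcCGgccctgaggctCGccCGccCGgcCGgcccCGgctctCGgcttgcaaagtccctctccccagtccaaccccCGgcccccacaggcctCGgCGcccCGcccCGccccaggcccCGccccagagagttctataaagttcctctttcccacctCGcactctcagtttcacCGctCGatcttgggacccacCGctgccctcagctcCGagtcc
F13A1: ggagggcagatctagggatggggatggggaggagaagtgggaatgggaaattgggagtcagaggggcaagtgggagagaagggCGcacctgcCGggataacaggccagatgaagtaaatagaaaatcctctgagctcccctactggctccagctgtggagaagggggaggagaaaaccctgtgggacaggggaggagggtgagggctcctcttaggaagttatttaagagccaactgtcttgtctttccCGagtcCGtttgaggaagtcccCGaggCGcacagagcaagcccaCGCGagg
TUBB2B: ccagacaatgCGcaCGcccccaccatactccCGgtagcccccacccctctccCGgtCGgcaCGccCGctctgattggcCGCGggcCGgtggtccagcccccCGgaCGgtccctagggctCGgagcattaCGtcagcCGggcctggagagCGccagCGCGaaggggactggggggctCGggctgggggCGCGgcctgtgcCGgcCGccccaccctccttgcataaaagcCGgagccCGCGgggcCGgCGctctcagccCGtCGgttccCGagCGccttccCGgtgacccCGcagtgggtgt
BMP6: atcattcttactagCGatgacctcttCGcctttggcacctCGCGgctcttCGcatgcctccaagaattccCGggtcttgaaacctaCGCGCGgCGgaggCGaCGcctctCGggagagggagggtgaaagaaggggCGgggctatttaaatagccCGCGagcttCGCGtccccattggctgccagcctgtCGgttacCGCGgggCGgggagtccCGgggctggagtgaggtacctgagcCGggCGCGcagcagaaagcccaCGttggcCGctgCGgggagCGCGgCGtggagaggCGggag
FOXF2: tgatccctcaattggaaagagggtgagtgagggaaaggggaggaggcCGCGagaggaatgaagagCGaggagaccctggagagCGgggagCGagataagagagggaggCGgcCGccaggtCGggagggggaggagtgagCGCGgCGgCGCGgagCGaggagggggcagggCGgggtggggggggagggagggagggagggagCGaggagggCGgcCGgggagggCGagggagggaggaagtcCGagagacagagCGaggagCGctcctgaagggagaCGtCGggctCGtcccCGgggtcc
FOXC1: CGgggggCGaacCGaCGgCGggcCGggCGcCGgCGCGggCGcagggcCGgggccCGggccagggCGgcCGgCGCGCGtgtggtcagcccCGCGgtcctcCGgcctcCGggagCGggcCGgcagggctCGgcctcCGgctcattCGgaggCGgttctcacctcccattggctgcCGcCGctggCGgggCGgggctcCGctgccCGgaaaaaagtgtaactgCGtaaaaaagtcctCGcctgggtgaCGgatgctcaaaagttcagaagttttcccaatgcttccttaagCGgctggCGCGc
RREB1: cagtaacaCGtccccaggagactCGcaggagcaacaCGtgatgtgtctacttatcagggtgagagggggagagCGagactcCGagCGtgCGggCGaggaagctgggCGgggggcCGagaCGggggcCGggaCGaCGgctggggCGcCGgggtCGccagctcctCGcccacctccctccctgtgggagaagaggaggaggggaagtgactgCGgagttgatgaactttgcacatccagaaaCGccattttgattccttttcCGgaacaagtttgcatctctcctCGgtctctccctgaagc

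CG dinucleotides were counted because CpG-rich promoters are the usual sites of Polycomb recruitment. FOXC1 had 40 in its 300 bases, TUBB2B 34, BMP6 33, IRF4 32, FOXF2 26, RREB1 22 and F13A1 8. The median over 35116 promoters in the table was 14, and 96.0% of them held at least 1. FOXC1 is thus the richest of the 7 and had no island, and F13A1, the poorest, had its start site inside a LY19Y646F island. Among 29 listed genes with a single promoter entry, the median was 30.5 for the 10 genes covered by at least 50% in LY19Y646F and 28 for the other 19, with ranges of 6 to 41 and 3 to 41. These ranges overlapped almost entirely, and the counts describe these letters only.

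LY19Y646F islands covered 52.7% of the segment and LY19WT islands 18.0%, or 5.27 and 1.80 Mb. The number of islands was nearly equal, at 183 and 189, so the lists differed in width and not in number. The median island measured 15.4 kb in LY19Y646F, with quartiles of 7.1 and 35.4 kb, and 5.8 kb in LY19WT, with quartiles of 3.8 and 11.2 kb. On the autosomes outside the segment the median was 5.8 kb in each line and the covered length of LY19Y646F was 0.685 times that of LY19WT, against 2.93 times here. Of the 183 LY19Y646F islands, 31 were wider than 50 kb and made up 54.6% of the covered length. LY19WT had 2 such islands in the segment. Outside it, 0.386% of LY19Y646F and 1.55% of LY19WT autosomal islands were that wide.

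**Figure D1:**
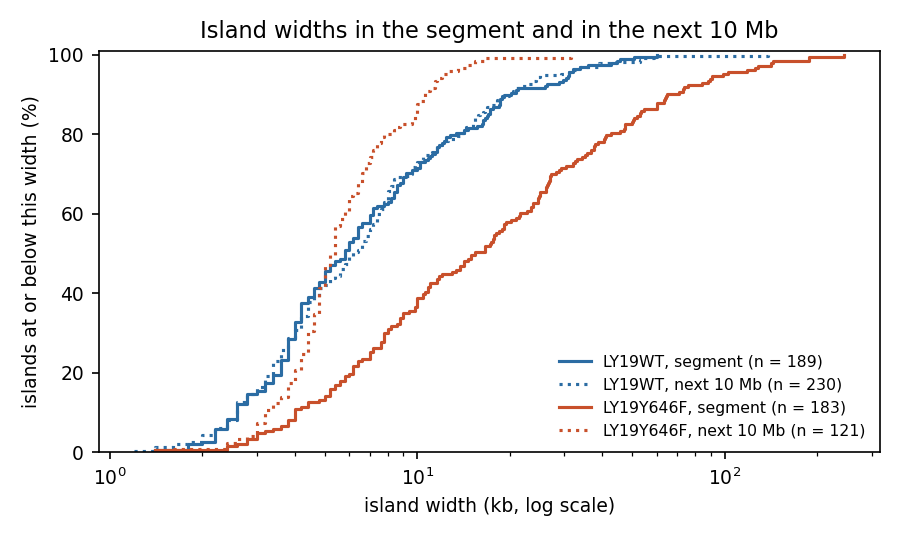
Cumulative share of islands (y axis, %) against island width (x axis, kb, log scale) for each line in the segment (solid) and in the next 10 Mb of chromosome 6 (dotted). The LY19Y646F curve of the segment lies to the right of the other 3, with a median of 15.4 kb against 5.8 kb in LY19WT, and 5.4 and 6.2 kb in the next 10 Mb.

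The excess of coverage came with more input DNA and a lower enrichment over input. Input density, in reads of the input library per kb of island, had a median of 12.4 in LY19Y646F, with quartiles of 11.6 and 13.1. This was 1.47 times the median over the autosomal islands of the same line. In LY19WT it was 8.54, with quartiles of 7.57 and 9.5, or 1.02 times its autosomal median. The quartile ranges of the lines did not overlap. Over all islands of the segment, input was 12.6 reads per kb in LY19Y646F, with a 95% exact Poisson interval of 12.5 to 12.7, and 8.64 in LY19WT, with an interval of 8.51 to 8.78. These intervals cover counting error only. The sums behind them were 66555 and 15535 input reads.

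ChIP density in the segment was 52.2 reads per kb in LY19Y646F, 1.25 times its autosomal median, and 60.4 in LY19WT, 1.05 times its autosomal median. The raw densities of the lines are set side by side and not scaled to each other. The authors' fold, the ChIP count over the input count scaled by library size, had a median of 1.59 in LY19Y646F and 2.32 in LY19WT. Outside the segment the autosomal medians were 1.90 and 2.28. LY19Y646F islands of the segment thus held more ChIP reads per kb than those elsewhere, while their fold was lower. Folds under 1.5 were found in 39.3% of them, against 12.3% outside the segment, and folds of 2 or more in 8.2% against 41.3%. In LY19WT the shares with a fold of 2 or more were 69.8% and 68.7%.

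The direction of the coverage difference depended on the enrichment asked of an island. With islands of an authors' fold of at least 2, a limit chosen after seeing the data, LY19Y646F covered 4.50% of the segment and LY19WT 15.2%. With a fold of at least the autosomal median of each list, the values were 9.66% and 12.7%. With a fold of at least 1.5 they were 44.3% and 17.7%. Coverage under these limits was computed for the segment only. On the other autosomes, 41.3% of LY19Y646F and 68.7% of LY19WT islands had a fold of 2 or more. In LY19Y646F the segment as a whole had higher input, lower fold and higher coverage than the other autosomes. Within it, 1 Mb bins of the first 9 Mb had median relative inputs of 1.40 to 1.58 and coverage of 23.2% to 82.8%. The part of the raised input in the coverage of LY19Y646F was not tested.

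**Figure D2:**
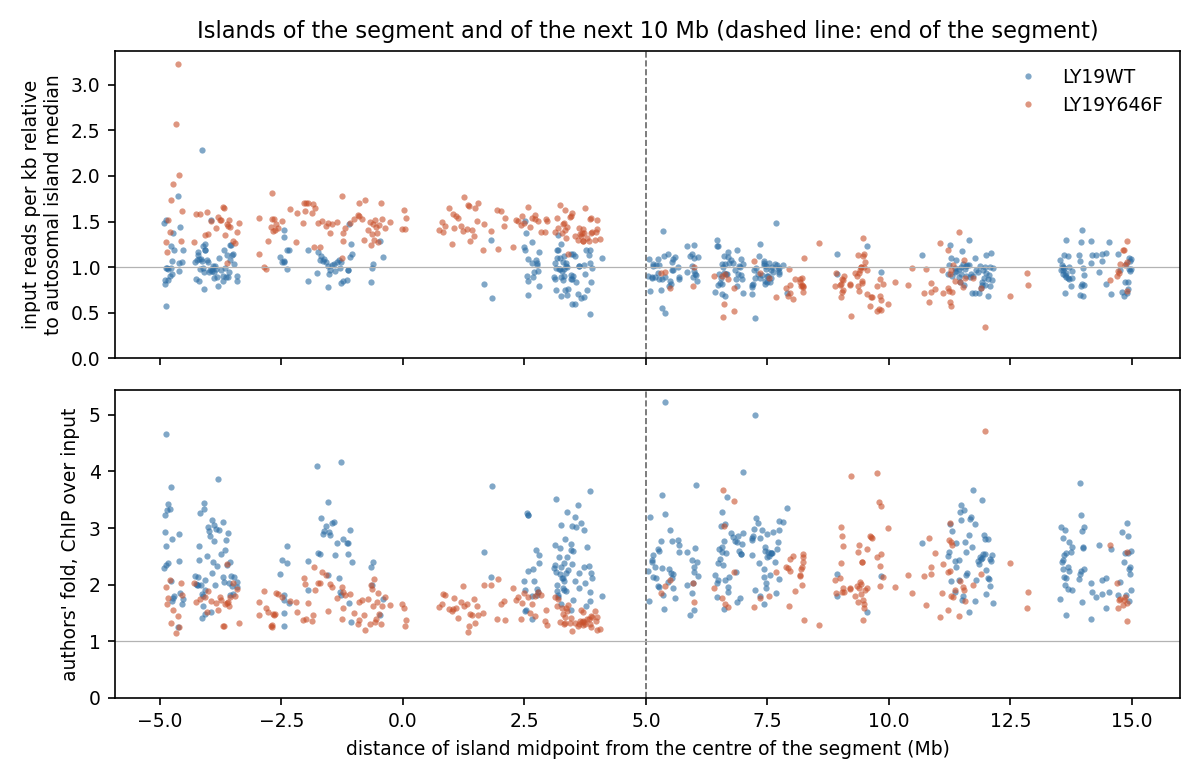
Each point is an island of the segment or of the next 10 Mb, placed by its distance from the centre of the segment (x axis, Mb), with its relative input density (upper panel) and the authors' fold (lower panel). LY19Y646F input lies near 1.5 up to the last island of the segment and near 0.84 beyond it, where the median fold is 2.05 in place of 1.59.

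The raised input reached to the last LY19Y646F island of the segment. In bins of 1 Mb, the median relative input of LY19Y646F islands lay between 1.40 and 1.58 over the first 9 Mb. The bin from 9 to 10 Mb held a single LY19Y646F island, at 9046801 to 9057400, with a relative input of 1.31, 117 input reads and a fold of 1.22. The first island beyond the 10 Mb limit lay at 10314001 to 10319200, with a relative input of 0.936, 41 input reads and a fold of 1.85. In LY19WT the last island inside, at 9085001 to 9089200, and the first outside, at 10032001 to 10041600, had relative inputs of 1.10 and 0.904. Input in the next 10 Mb was 0.837 times the autosomal median in LY19Y646F and 0.962 times in LY19WT. Coverage of that stretch ran the other way, at 7.68% in LY19Y646F and 22.4% in LY19WT.

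Islands matched between the lines gave the same picture of input without the difference in width. In the segment, 23 pairs overlapped by at least 50% of both islands. The input density of LY19Y646F was 1.45 times that of LY19WT, with quartiles over pairs of 1.37 and 1.71, against 0.951 in 8343 pairs on the other autosomes. The fold of LY19Y646F was lower in 23 of the 23 pairs, at a median ratio of 0.615, against 72.7% of pairs and 0.828 elsewhere. The ratio of raw ChIP density was 0.807 in the segment and 0.680 elsewhere.

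Almost all of what LY19WT marked in the segment was also marked in LY19Y646F. Ground under islands of both lines came to 1.64 Mb, which is 91.5% of the LY19WT length and 31.2% of the LY19Y646F length. On the other autosomes these shares were 33.1% and 48.4%. The first share is set beside a segment of which LY19Y646F covered 52.7%. The Jaccard index, which divides the shared ground by all ground marked in at least 1 line, was 0.303 here and 0.245 on the other autosomes. Of the 189 LY19WT islands, 173, or 91.5%, met a LY19Y646F island, against 39.1% on the other autosomes. Wholly inside a LY19Y646F island lay 140, which was not counted on the other autosomes. In the other direction 74 of the 183 LY19Y646F islands, or 40.4%, met a LY19WT island, against 56.6% on the other autosomes. Of the 74, 45 met at least 2, up to 12, which was also not counted on the other autosomes. At those 45 islands, 1 LY19Y646F island stood over ground that several LY19WT islands shared.

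For the 109 LY19Y646F islands that met no LY19WT island, the median width was 10.4 kb and the median fold 1.51. For the 74 that did, these medians were 26.4 kb and 1.68. Relative input was close in both sets, at 1.45 and 1.48. The 16 LY19WT islands that met no LY19Y646F island had medians of 4.2 kb in width and 2.64 in fold. They lay at the chromosome end from 60001 to 121400 (5 islands), over IRF4 (2 islands) and between 8481601 and 9089200 (9 islands).

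Windows of 100 kb showed how the difference was spread along the segment. Coverage was higher in LY19Y646F in 76 of 100 windows and higher in LY19WT in 3. The genome shares of these counts were not computed. In 37 windows LY19Y646F exceeded LY19WT by at least 50 percentage points, against 2.42% of the 30556 windows of the genome. No window exceeded that difference in favour of LY19WT, where the genome share was 8.75%. Both lines covered at least 50% of 15 windows, against 4.57% in the genome, and 21 windows held no island of either line, against 41.5%. Since the segment was picked for this contrast, these counts describe it.

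**Figure D3:**
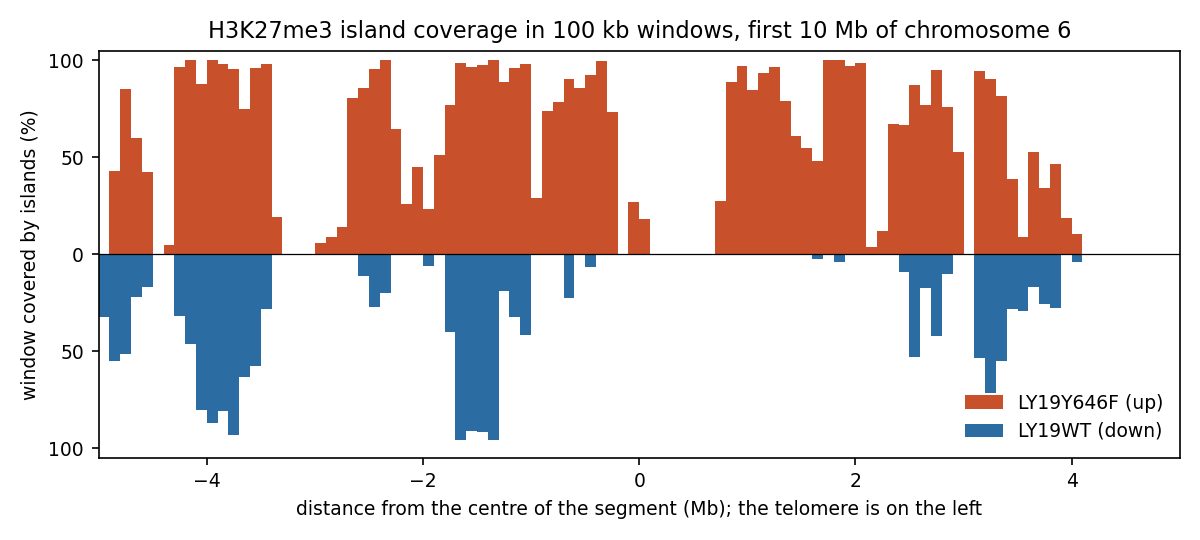
Share of each 100 kb window covered by islands (y axis, %), with LY19Y646F drawn upward and LY19WT downward, against the distance from the centre of the segment (x axis, Mb). Coverage was higher in LY19Y646F in 76 of 100 windows, a count not made over the genome. The tallest LY19WT bars lie where LY19Y646F is also high. Lower LY19WT bars also stand where LY19Y646F is low. Examples are the first window (32.2% against 0%) and that from 8500001 to 8600000 (29% against 8.8%).

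Windows covered by at least 50% in both lines formed 5 blocks, of which the 3 longest are given. From 900001 to 1500000, from upstream of the forkhead cluster to past FOXF2, LY19WT covered 77.0% and LY19Y646F 92.1%. From 3300001 to 3700000, over SLC22A23 and the ground beyond it, the values were 93.6% and 98.3%. From 8100001 to 8400000 they were 59.9% and 88.7%. The longest LY19WT island, from 1227001 to 1287000, lay in the first of these with 3843 ChIP reads, 491 input reads and a fold of 2.55. LY19Y646F covered 97.7% of it. Of the other 4 longest LY19WT islands, all between 3356801 and 3670000, LY19Y646F covered 96.7% to 100%.

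Stretches of windows where LY19Y646F exceeded LY19WT by at least 50 percentage points were 100 to 800 kb long. The blocks covered in both lines were 100 to 600 kb long. Some of the longer stretches follow, in which LY19WT had little. Islands covered 85.3% of the stretch from 2300001 to 2800000 in LY19Y646F, against 11.7% in LY19WT. The stretch from 4100001 to 4800000, which runs into CDYL, was at 85.0% against 4.2%. That from 5800001 to 6600000, over NRN1 and F13A1, was at 82.0% with no LY19WT island. That from 6700001 to 7100000, between LY86 and RREB1, was at 99.0% against 1%. The bin from 6 to 7 Mb had the widest gap of the 10 bins of 1 Mb, with 81.5% against 0.620%.

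The 5 longest LY19Y646F islands differed in how far LY19WT shared them. The longest, from 6687601 to 6932200, was 244.6 kb wide with a relative input of 1.39 and a fold of 2.0, and LY19WT covered 1.64% of it. The island from 2575001 to 2763400 was covered to 10.6% and had a relative input of 1.64 and a fold of 1.72. Those from 761401 to 904800, 3556601 to 3744000 and 986401 to 1128000 were covered to 49.7%, 80.1% and 90.3%, with folds of 1.74, 1.76 and 1.72. Broad LY19Y646F islands thus lay both on ground that LY19WT marked and on ground where its list was nearly empty. Absence from a list means only that no island was called there.

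The highest folds of the segment came from islands of very different width. In LY19WT the top 5 ran from 3.74 to 4.66, in islands 1.8 to 31.2 kb wide, led by the island from 122201 to 126600 with 301 ChIP and 21 input reads. The LY19WT island over TUBB2B, from 3212201 to 3241200, had 2868 ChIP and 228 input reads and a fold of 4.09. In LY19Y646F the top 5 ran from 2.11 to 2.37, in islands 3.2 to 98.6 kb wide, led by the island from 1386001 to 1389200, just before FOXF2, with 174 ChIP and 28 input reads. The islands ranked 3 and 4 there, 65 and 98.6 kb wide, had folds of 2.22 and 2.16. The leading island had a relative input of 1.04. The exact 95% Poisson interval of its 28 input reads, 18.6 to 40.5, is wide, so its fold is imprecise.

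Other stretches were empty in both lines. No island of either list lay from 1700001 to 2000000, inside GMDS, from 5100001 to 5700000, a stretch mostly taken up by FARS2, or from 9100001 to 10000000. LY19WT had no island at all from 5 to 6 Mb, where LY19Y646F had 8 that covered 23.2%. Read densities outside islands are not in the lists, so input in these stretches is unknown.

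Genes were read against the islands with hg19 spans rounded to 1 kb, typed from general knowledge of the build. The spans were not read from an annotation file, because the RefSeq table at hand was on GRCh38.p14. Of 41 genes listed, 40 stood in the same order in that table and were kept. LYRM4 did not and was left out. For 7 of the 40 the span differed by over 10% and at least 2 kb in length from the table, MYLK4, RIPK1 and FAM50B among them. Of the 40 genes, 12 were covered by at least 50% in LY19Y646F and 3 in LY19WT. The 3 were covered by at least 50% in both lines. Coverage was higher in LY19Y646F for 16 genes and higher in LY19WT for 2, and 22 had no island in either line. The median over the 40 genes was 0% in each line.

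**Figure D4:**
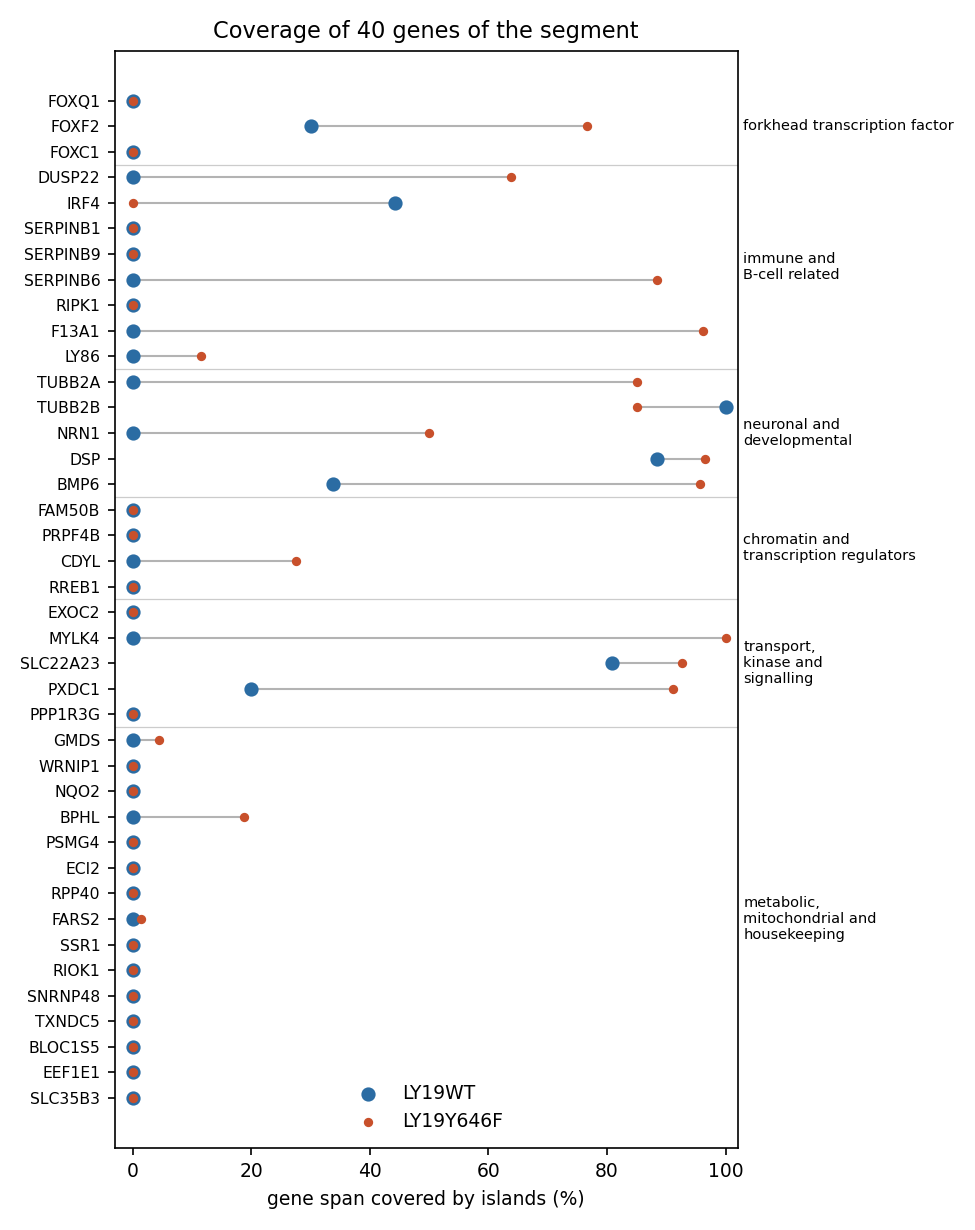
Share of each gene's span covered by islands (x axis, %) for 40 genes grouped by role, with LY19WT as large and LY19Y646F as small points joined by a line. The group of neuronal and developmental genes reaches 50% to 96.4% in LY19Y646F, and the forkhead genes, a group apart, 0% to 76.7%. The metabolic, mitochondrial and housekeeping genes stay at or under 18.8% in both lines.

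The forkhead genes FOXQ1, FOXF2 and FOXC1 encode developmental transcription factors and are common Polycomb targets in other cell types. Islands of both lines lay within 15 kb of FOXQ1 and FOXF2. Coverage of FOXF2 (1.39 to 1.396 Mb) was 30.0% for LY19WT and 76.7% for LY19Y646F, by single islands with folds of 2.91 and 1.69. FOXQ1 (1.313 to 1.315 Mb) had no island over it in either line, with the nearest at 3.2 kb in LY19WT and 2.8 kb in LY19Y646F. FOXC1 (1.611 to 1.614 Mb) had none either. A 64.2 kb LY19Y646F island from 1545001 to 1609200, with 3759 ChIP and 748 input reads and a fold of 1.92, ended 1.8 kb before it. The nearest LY19WT island was 21 kb away.

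IRF4 went against the segment as a whole. LY19WT islands covered 44.2% of IRF4 (0.392 to 0.411 Mb), and no LY19Y646F island met it. The LY19WT islands lay from 392201 to 399200, with 499 ChIP and 56 input reads and a fold of 2.90, and from 409601 to 413800, with 291 and 51 reads and a fold of 1.86. In LY19WT 60% of the 2 kb around the start site was covered. Both lines had an island just upstream, from 380601 to 391400 in LY19WT with a fold of 2.43 and from 379401 to 391000 in LY19Y646F with a fold of 1.26. The LY19Y646F island had a relative input of 2.01, above that of most of the segment. LY19Y646F also had an island downstream, from 425401 to 449200, with a fold of 2.03.

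F13A1, which encodes the A subunit of coagulation factor XIII and is expressed by monocytes, macrophages and platelets, lay almost wholly under LY19Y646F islands. They took up 96.2% of its span (6.144 to 6.321 Mb), against 0% for LY19WT, whose nearest island was 348.2 kb away. The 4 LY19Y646F islands held 10032 ChIP and 2278 input reads, with folds of 1.63 to 1.98 and a relative input of 1.5. The start site lay inside the island from 6283201 to 6330600, which had 2477 ChIP and 568 input reads and a fold of 1.66. LY86, which encodes the MD-1 protein that pairs with the receptor RP105 on B cells, lies next to it, with 11.5% under LY19Y646F islands and 0% under those of LY19WT. Its start site was free of islands in both lines, and the 244.6 kb LY19Y646F island began beyond its end.

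The serpin B genes encode intracellular protease inhibitors. SERPINB6 had 88.3% of its span under LY19Y646F islands, with folds of 1.38 and 2.11, and none under LY19WT islands. SERPINB1 and SERPINB9, the inhibitor of granzyme B, had no island in either line. The nearest LY19Y646F islands were 6.8 and 43.8 kb away, and the nearest LY19WT islands 182.8 and 131.2 kb. RIPK1, a kinase of cell death signalling, had none either. Of the 8 immune and B-cell related genes, 3 were covered by at least 50% in LY19Y646F and none in LY19WT, against 12 and 3 of all 40 genes.

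DUSP22, which encodes a dual-specificity phosphatase, was the third of these, at 63.7% in LY19Y646F and 0% in LY19WT. It rested on 1 island, from 313401 to 352000, with 2520 ChIP and 834 input reads. That island had a relative input of 2.57 and a fold of 1.15, the lowest fold of the LY19Y646F islands in the segment. This stretch of 6p25 is known to have a near-identical copy elsewhere in the genome, so its reads may not all come from DUSP22.

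All 5 neuronal and developmental genes were covered by at least 50% in LY19Y646F and 2 in LY19WT, with medians of 85.0% and 33.8%, against 12 and 3 of all 40 listed genes. The forkhead genes, also developmental, formed their own group, with 1 of 3 covered by at least 50% in LY19Y646F and 0 in LY19WT. No difference between gene groups was tested. TUBB2B, a neuronal beta-tubulin, lay wholly under a LY19WT island, and 85.0% of it lay under a LY19Y646F island that ended inside the gene, at 3227400. Its close paralog TUBB2A also had 85.0% under LY19Y646F islands and none under LY19WT islands, and reads from stretches that the 2 genes share could be split between them. DSP, the desmosome protein desmoplakin, was covered to 88.4% in LY19WT by 4 islands and to 96.4% in LY19Y646F by 1. BMP6, a ligand of the BMP family, was covered to 33.8% in LY19WT by 6 islands and to 95.6% in LY19Y646F by 2. NRN1, a membrane-anchored neuronal protein, had 50% of its span under a LY19Y646F island and none under a LY19WT island. With its span rounded to 1 kb, it stood exactly at the limit.

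BMP6 shows how islands of the lines related at 1 gene. In LY19WT the 6 islands were 4 to 18.6 kb wide, with folds of 1.82 to 2.61 and a relative input of 1.04. In LY19Y646F 1 island of 88 kb, from 7727601 to 7815600, took in all of them, with 5436 ChIP and 1114 input reads and a fold of 1.86. A second of 60.2 kb, from 7816401 to 7876600, lay over the rest of the gene, which LY19WT left free, with a fold of 1.82. The relative input of the 2 islands together was 1.46. Around the start site 20% of the 2 kb was covered in LY19Y646F and none in LY19WT.

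Of the genes of transport, kinase and signalling, SLC22A23, a solute carrier, had 80.9% of its span under LY19WT and 92.6% under LY19Y646F islands, with median folds of 2.99 and 2.16. For PXDC1 these shares were 20% and 91.0%. MYLK4, a kinase of the myosin light chain kinase family, was covered to 0% and 100% by the LY19Y646F island from 2575001 to 2763400. EXOC2, a subunit of the exocyst, and PPP1R3G, a regulatory subunit of protein phosphatase 1, had no island in either line. Among chromatin and transcription regulators, CDYL, a chromodomain corepressor that binds H3K27me3, had 27.5% of its span under 1 LY19Y646F island with a fold of 1.63, which took in the start of the span used here, and none under LY19WT islands. CDYL has further start sites, which were not analysed here. RREB1, a zinc finger transcription factor, PRPF4B, a splicing-related kinase, and FAM50B, an imprinted retrogene, had no island in either line. The nearest LY19Y646F islands to RREB1 and FAM50B lay 1 and 0.401 kb away.

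Genes of general cell function made up the largest role group. Of 15 metabolic, mitochondrial and housekeeping genes, none was covered by at least 50% in either line and 12 had no island in either, against 22 of all 40 genes with none. The exceptions were BPHL, covered to 18.8% in LY19Y646F, GMDS, an enzyme of GDP-fucose synthesis, at 4.41%, and FARS2, the mitochondrial phenylalanyl-tRNA synthetase, at 1.37%. LY19WT had no island over any of the 15. Several were closely flanked in LY19Y646F. An island began or ended 1.2 kb from RIOK1, a kinase of ribosome maturation, 0.8 kb from SNRNP48 and 1.4 kb from ECI2, and the nearest LY19WT islands were 69.8, 4.6 and 162.6 kb away.

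Start sites were read apart from gene spans. Among 38 genes with a known strand, islands covered at least 50% of the 2 kb around the start site in 4 genes in LY19Y646F and 2 in LY19WT. In LY19Y646F these were F13A1, TUBB2B, CDYL and MYLK4, whose start may lie elsewhere because its span differed from the table. In LY19WT they were IRF4 and TUBB2B. At DSP, covered to 96.4% in LY19Y646F and 88.4% in LY19WT, 30.0% and 0% of the start site window was covered. At SLC22A23 the values were 0% and 20%.

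Among 260 bins of 10 Mb on the autosomes, the segment had the widest LY19Y646F islands by median, where the other bins ran from 4.2 to 11 kb. It also had the highest relative ChIP density in LY19Y646F, at 1.25 against 0.850 to 1.13, and the most islands over 50 kb, 31 against at most 17. Its LY19Y646F coverage and its difference in coverage ranked second. The difference was 34.7 percentage points, behind the bin from 70 to 80 Mb of chromosome 18 at 35.2 and ahead of the first 10 Mb of chromosome 1 at 30.3. In those 2 bins LY19WT input was low, at 0.439 and 0.595, with LY19Y646F input at 1.17 and 0.873. The LY19Y646F fold of the segment was the seventh lowest. In LY19WT the segment ranked 150 by coverage and 110 by median width from the highest.

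Other bins with raised input differed widely in coverage. There were 9 other bins with a relative LY19Y646F input above 1.2. LY19Y646F covered more than LY19WT in 4 of them and less in 5, with differences from -15.8 to 18.6 percentage points. Over all 260 bins LY19Y646F covered more in 76. The median difference was -0.42 points in the 9 bins, against -5.41 over all bins other than the segment. A relation between input and coverage was not tested. The 2 with input above that of the segment, from 50 to 60 and from 70 to 80 Mb of chromosome 6, had inputs of 1.5 and 1.57 in LY19Y646F. Their LY19Y646F coverage was 18.9% and 21.3%, with median widths of 9.1 and 9.8 kb. Their median LY19Y646F folds, 1.43 and 1.35, were lower than the 1.59 of the segment. LY19WT input was 1.35 and 0.975 in these bins, against 1.02 in the segment. The bin from 50 to 60 Mb, with input raised in both lines, gave the difference of -15.8 points. The bin from 40 to 50 Mb of chromosome 20, at an input of 1.21, had the highest LY19Y646F coverage of all bins, 57.7%, with LY19WT at 39.0%, a median width of 11 kb and 17 islands over 50 kb.

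**Figure D5:**
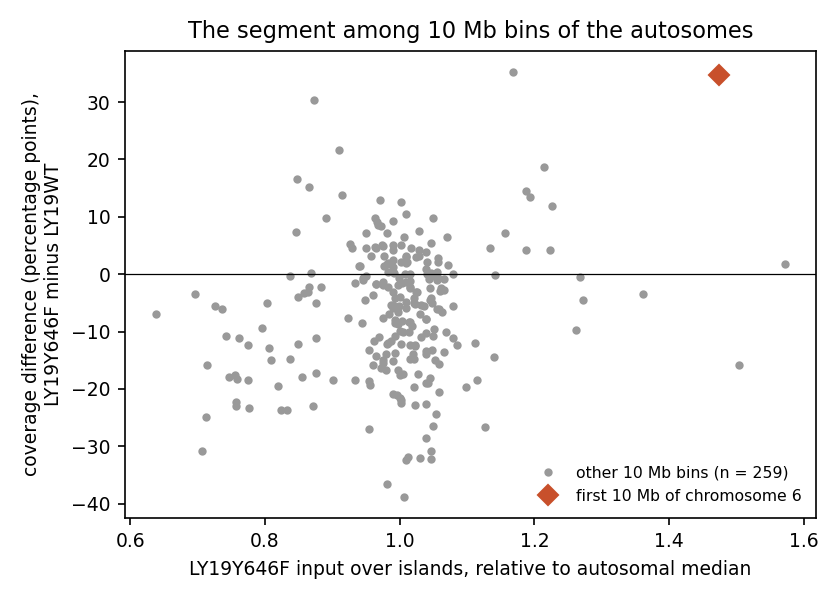
Difference in coverage between the lines (y axis, percentage points, LY19Y646F minus LY19WT) against the relative input density of LY19Y646F (x axis) for 260 bins of 10 Mb. The segment stands at 34.7 points and an input of 1.47, and the 9 other bins with input above 1.2 lie between -15.8 and 18.6 points.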

How the data were processed

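H3K27me3 ChIP-seq islands of LY19WT and LY19Y646F were analysed from 1 island list for each line. The submitters' processing notes name SICER and bedtools without a version, Bowtie2 2.2.9, SAMtools 1.3.1 and hg19. The list names give an FDR of 0.001. Per the file headers, each island comes with deposited read counts (ChIP and input), the caller's p-value and FDR, and a fold, which is a linear ratio. The authors' merging of replicates hides the spread between them. The library ratio recovered from the deposited fold was 3.07 in LY19WT and 2.62 in LY19Y646F. No gap between islands was under 800 bp.

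The segment, the gene list and the alternatives were chosen with earlier results of these data known. Islands belonged to the segment by their midpoint. Coverage was computed in steps of 200 bp. Relative density is an island's reads per kb over the median of the autosomal islands of its line. Bins of 10 Mb needed at least 5 islands of each line. Genes named were all those of the list. Islands named were the 5 longest and the 5 of highest fold of each line, those beside the 10 Mb limit, those over or beside listed genes and those of LY19WT alone. Alternatives were FDR limits, joined gaps, an equal covered length, other windows, other overlaps and other segment ends. Limits on fold and widened gene spans were added after seeing the data. The computations were checked on simulated lists. Software was scipy 1.17.1, pandas 2.3.3 and numpy 2.4.6 under Python 3.11.15. No difference between the lines was tested, because each has 1 list.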

Additional observations from a re-analysis of the deposited data

How the results depend on the processing

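The higher LY19Y646F coverage (34.7 percentage points) turned round under 2 limits chosen after seeing the data. With folds of at least 2 the difference was -10.7 points (LY19WT 15.2%, LY19Y646F 4.5%), with 15 LY19Y646F islands, a LY19WT median width of 7.7 kb, a Jaccard index of 0.152, 0 windows higher in LY19Y646F and 9 in LY19WT by 50 points, and 2 genes covered in LY19Y646F. With folds of at least the autosomal median of each list it was -3.04 points (12.7% and 9.66%), with 99 LY19WT islands of 8.6 kb and 26 LY19Y646F islands of 22 kb, a Jaccard index of 0.160, 3 and 6 windows and 3 genes. Another limit added then, a fold of at least 1.5, left 111 LY19Y646F islands of 26.2 kb that covered 44.3%, a difference of 26.6 points and an index of 0.311. An FDR of at most 1e-05 gave 51.5% and 33.7 points, and one of at most 1e-10 gave 17.2% and 49.1%, 31.9 points, 25 kb and 0.293. Joining gaps up to 5 kb left 87 islands of 10.2 kb (19.8%) in LY19WT and 65 of 29 kb (54.8%) in LY19Y646F, with an index of 0.327. Cutting the LY19WT list to an equal covered length left 80 islands of 12.4 kb (13.3%), 39.4 points and 0.230. A segment of 8 Mb gave 18.6% and 59.9%, or 41.3 points, and one of 12 Mb 21.2% and 44.6%, or 23.4 points. Windows of 50 kb gave 0.5 windows of 100 kb higher in LY19WT. Relative input from totals was 0.967 and 1.38, and 0.951 in LY19WT over matched islands. Asking overlap of 50% of both islands left 12.2% of LY19WT and 12.6% of LY19Y646F islands, against 14.5% and 17.7% on the other autosomes. Beyond what each setting removes, the cause was not tested. The other 54 values computed stayed close to the main ones (counts within 1.5 times). Leaving out a replicate could not be run because replicates were merged. No paired analysis was possible because each line has 1 merged list. Gene spans are rounded to 1 kb.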
